A study of Mus musculus with 9 samples.

Results

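The dual-specificity phosphatases Dusp1, Dusp2, Dusp4, Dusp5, Dusp6, Dusp8, Dusp10 and Dusp16 and the Sprouty genes Spry2 and Spry4 were followed on the arrays of this series. They were chosen by name, taking every gene probe whose gene name or synonym in the array files matched. This gave 15 probes for 9 of the 10 genes, out of 41174 gene probes carrying 27729 names. No probe carried the name of Dusp5 or its synonym, and Dusp5 was not analysed here. The samples were preadipocytes of the line 3T3-L1, mouse fibroblasts that can be differentiated into adipocytes. All cultures were kept without serum for 48 h, after growth in medium with 10% fetal bovine serum. They then received X-1 at 70 µM, X-3 at 70 µM or no compound (control), and RNA was taken after 24 h. X-1 and X-3 are code names for derivatives of mangiferin, per the series title. Each group had 3 one-colour arrays, and the control was untreated per the labels. The comparisons asked how each compound, and one compound against the other, moved these transcripts.

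Growth factor receptors signal through RAS, RAF and MEK to the kinase ERK, and cytokines and stress act through the related kinases JNK and p38. Dual-specificity phosphatases of this family switch these kinases off by removing phosphate from both the threonine and the tyrosine of the activation loop, and many of them are themselves induced when the kinases are active, which forms a negative feedback. Dusp1, Dusp2, Dusp4 and Dusp5 are inducible nuclear phosphatases, Dusp6 is a cytoplasmic phosphatase selective for ERK, and Dusp8, Dusp10 and Dusp16 act mainly on JNK and p38. Sprouty proteins act further upstream and dampen RAS-ERK signalling below growth factor receptors. In 3T3-L1 cells ERK signalling is known for its part in growth and in the start of adipocyte differentiation.

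The regions just upstream of 4 phosphatase genes are shown. Those of Dusp1 and Dusp8 hold a full cAMP response element (CRE, the site of CREB and ATF factors). In the main fit, Dusp2 had the largest difference with X-1 at the brightest probe of each gene, and Dusp6 the largest between the compounds. Each line gives the 250 bases before the start of the gene on its own strand, from RefSeq, build GRCm38.p6. Capitals mark matches to the CRE or to its short form. The windows lie at chr17:26508473-26508722 (minus strand) for Dusp1, chr7:142095285-142095534 (minus strand) for Dusp8, chr2:127335909-127336158 (plus strand) for Dusp2 and chr10:99262981-99263230 (plus strand) for Dusp6.
Dusp1: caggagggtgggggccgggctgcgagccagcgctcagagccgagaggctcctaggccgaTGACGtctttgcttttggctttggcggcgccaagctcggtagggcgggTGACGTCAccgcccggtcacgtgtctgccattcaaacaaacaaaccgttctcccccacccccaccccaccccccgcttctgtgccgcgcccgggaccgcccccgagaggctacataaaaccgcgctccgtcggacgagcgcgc
Dusp8: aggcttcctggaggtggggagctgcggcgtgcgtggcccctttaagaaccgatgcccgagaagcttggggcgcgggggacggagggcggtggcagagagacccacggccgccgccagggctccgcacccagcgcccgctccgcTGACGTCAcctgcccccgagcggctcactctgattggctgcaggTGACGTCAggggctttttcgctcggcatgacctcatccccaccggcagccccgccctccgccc
Dusp2: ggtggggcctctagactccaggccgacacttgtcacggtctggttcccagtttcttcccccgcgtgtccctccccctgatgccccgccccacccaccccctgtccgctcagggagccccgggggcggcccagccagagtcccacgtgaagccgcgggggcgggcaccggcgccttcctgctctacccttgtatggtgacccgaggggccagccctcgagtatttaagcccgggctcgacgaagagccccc
Dusp6: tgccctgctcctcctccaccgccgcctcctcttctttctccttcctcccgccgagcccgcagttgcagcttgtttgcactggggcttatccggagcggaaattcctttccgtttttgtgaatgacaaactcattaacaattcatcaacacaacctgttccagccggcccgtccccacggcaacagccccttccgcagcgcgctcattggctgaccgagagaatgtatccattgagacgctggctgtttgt

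A window was found for 8 of the 10 genes, all but Dusp4 and Spry4. Both strands were searched for the CRE (TGACGTCA), its short form (TGACG, which the full CRE holds on both strands), the AP-1 site (TGANTCA), the core of the hypoxia response element (ACGTG) and the GC box (GGGCGG). Over 32851 windows of the same length, 1.55% held the CRE, 17.8% the short form, 6.75% the AP-1 site, 16.6% the hypoxia core and 32.7% the GC box. Those windows had a median GC content of 52.4%, whereas the 8 windows here had 56.4% to 71.6%. The shares are not matched for GC content. The Dusp1 window held a CRE 143 to 136 bases before the start and a further short form 191 to 187 bases before it. The Dusp8 window held 2 CREs, of which the nearer lies 63 to 56 bases before the start. Dusp16 had a single short form, 70 to 66 bases before the start, and Dusp5 one at 55 to 51 bases. No CRE or short form was found in these windows of Dusp2, Dusp6, Dusp10 or Spry2, and the AP-1 letters were in none of the 8. The hypoxia core was present in Dusp1, Dusp2 and Dusp5, and the GC box in all windows but those of Dusp6 and Spry2. These matches are letters in a window and were not tested as binding sites.

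Signals below are the processed intensity as a percent of the 75th percentile over the gene probes of the same array, so that 100 marks a spot as bright as that percentile. Brightness depends on the probe, and levels of different genes were not compared. Differences are log2 ratios ± standard error from a limma fit to all genes, with 3 arrays per group, and a gene was called at a Benjamini-Hochberg adjusted p below 0.05 over 16736 genes. Of the 15 probes, 14 were well above background on all 3 arrays of every group. The other, a probe of Spry4, was above background on 1 control array only and was left out. Where a gene had several kept probes, the brightest stood for the gene. For its other probes p was adjusted over all kept probes. In each array 43379 spots measured genes, 0 were saturated and 57.9% to 67.1% were well above background. Same-numbered replicates shared a slide, and on every slide each group held one fixed position, so that the effects of position and group cannot be told apart. X-3 replicate 1 stood apart from X-3 replicates 2 and 3 on the second principal component of all genes (72.4, against −20.6 and −18.0). All 10 preadipocyte or fibroblast markers were above background on every array. On all 3 arrays of a group this held for 1 of 8 adipocyte markers, 3 of 6 macrophage markers, 1 of 4 endothelial markers and 1 to 2 of 4 epithelial markers. The adipocyte markers Lep, Cfd and Slc2a4 and the macrophage markers Adgre1 and Itgam were above background on no array. The same held for Pecam1, Cdh5 and Kdr (endothelial) and Epcam and Cdh1 (epithelial). Ptprc (macrophage), Plin1 and Retn (both adipocyte) were above background on no control or X-1 array, but each on at least 1 X-3 array. Adipoq (adipocyte) was above background on no control array, but on at least 1 array of X-1 and of X-3. Krt18 (epithelial) was above background on no X-1 array, but on at least 1 array of control and of X-3. In bulk RNA fewer expressing cells and less RNA per cell cannot be told apart.

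X-1 raised all 7 measured phosphatases, by 1.33 to 2.58 on the log2 scale, and neither Sprouty gene was called. X-3 raised 6 of the 7, by 1.05 to 2.42, with Dusp6 not called. Both comparisons use the same 3 control arrays. The calls are to be read against a background in which 56.3% of all genes were called with X-1 (28.0% higher and 28.2% lower) and 55.3% with X-3 (28.9% higher and 26.4% lower). The median difference over the 9 genes was 2.10 with X-1 and 1.39 with X-3, whereas over all genes it was 0.06 and 0.05. Every X-1 array was above every control array for 7 of the 9 genes (34.7% of all genes), and every X-3 array for 6 of the 9 (32.7% of all genes).

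**Figure D1:**
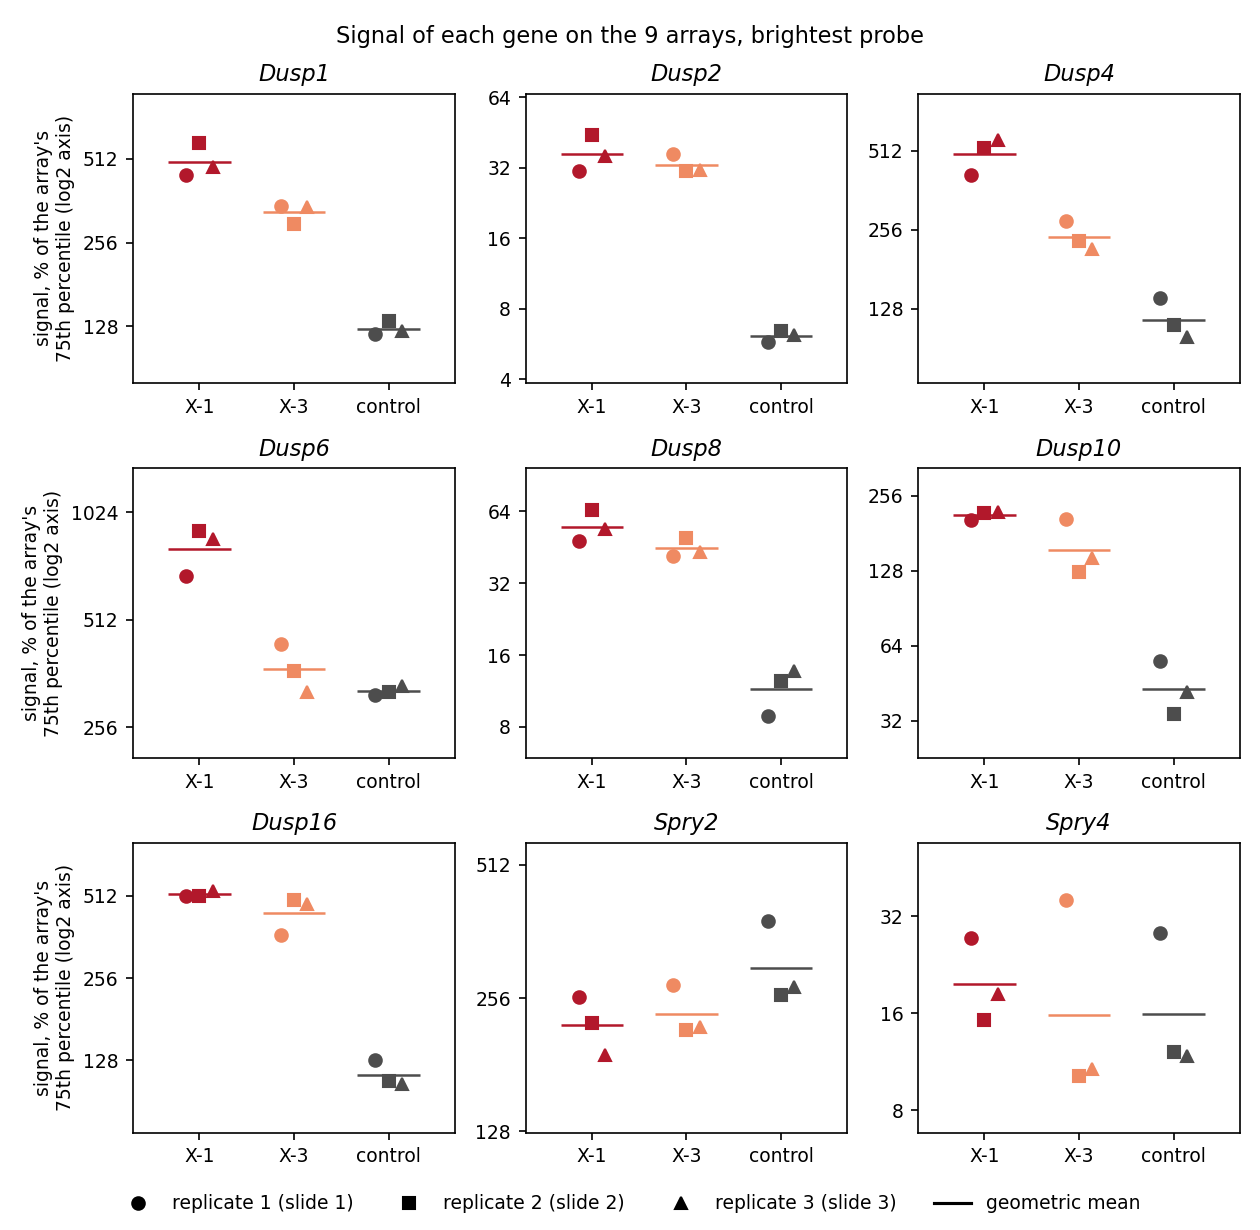
Signal of the brightest probe of each gene on the 9 arrays, in percent of the 75th percentile of the same array on a log2 axis. Symbols mark the slide and lines the geometric mean of 3 arrays. The X-1 and X-3 arrays sit above the control arrays for Dusp1, Dusp2, Dusp4, Dusp8, Dusp10 and Dusp16, while for Dusp6 this holds for X-1 alone.

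Among the nuclear phosphatases, Dusp1, an early-response phosphatase of p38, JNK and ERK, had signals of 446, 586 and 479% with X-1 and 348, 299 and 343% with X-3, against 119.9, 134 and 123% in control (replicates 1, 2 and 3, probe at chr17:26642526-26642536 in mm9). The 3 groups did not overlap, with X-3 between X-1 and control. Dusp1 rose by 1.99 ± 0.14 with X-1 (3.99-fold, adjusted p = 3.61e-06) and by 1.39 ± 0.14 with X-3 (2.62-fold, adjusted p = 3.74e-05). Within slides 1, 2 and 3 the X-1 difference was 1.90, 2.13 and 1.96 and the X-3 difference 1.54, 1.16 and 1.48. With the arrays scaled to spike-in RNA, which slides 2 and 3 carried, the X-3 difference was 0.62 and not called (adjusted p = 0.0646). The files give genome coordinates for 11 of the probe's 60 bases.

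Dusp2, a nuclear phosphatase best known from activated lymphocytes, had the largest difference with each compound when each gene was read by its brightest probe. The second probe of Dusp4 and a dimmer probe of Dusp16 gave larger ones. With normexp background correction the X-1 difference of Dusp2 was 1.88. That was below Dusp10 (2.20), Dusp16 (2.11), Dusp4 (2.01) and Dusp1 (1.94) and above Dusp8 (1.87) and Dusp6 (1.31). The ranks were not tested. The signals of Dusp2 were 31.1, 44.2 and 35.8% with X-1 and 36.5, 30.9 and 31.2% with X-3, against 5.77, 6.41 and 6.20% in control (probe at chr2:127163930-127163989, mm9). The treated arrays overlapped each other and lay well above the controls, which were within a narrow range. The difference was 2.58 ± 0.15 with X-1 (5.98-fold, adjusted p = 1.58e-06) and 2.42 ± 0.15 with X-3 (5.35-fold, adjusted p = 2.95e-06). The slides gave 2.43, 2.78 and 2.53 with X-1 and 2.66, 2.27 and 2.33 with X-3. The 5 genes whose log2 signal followed Dusp2 most closely over the 9 arrays were Abhd2, Faxc, Catsperz, Lman1l and Bhlhe41, with Pearson r of 0.998 to 0.999, a likeness that any gene with one level in the controls and another in both treated groups would approach.

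Dusp4, a nuclear phosphatase of ERK and JNK, was read by 2 probes. They lie at chr8:35884806-35884865 for the brighter one, A_51_P347333, and at chr8:35882045-35882104 for A_51_P518051 (mm9). Their first 30 bases are shown because the probes disagreed on the size of the change.
A_51_P347333: tcaagggacttcagtaagataacaatgcaa
A_51_P518051: aataacggcggtttccgctgccagagaaga
The brighter probe had signals of 414, 524 and 563% with X-1 and 277, 231 and 216% with X-3, against 141, 111 and 99.8% in control. At the second probe they were 356, 415 and 416% with X-1 and 239, 241 and 272% with X-3, against 24.4, 19.1 and 18.2% in control. At both probes the 3 groups were fully separated in the order X-1, X-3, control. The brighter probe gave 2.10 ± 0.18 with X-1 (4.27-fold, adjusted p = 1.35e-05) and 1.05 ± 0.18 with X-3 (2.07-fold, adjusted p = 0.00106). The second gave 4.27 ± 0.15 (19.3-fold) and 3.62 ± 0.15 (12.3-fold), adjusted over all kept probes to 2.85e-07 and 6.09e-07. The direction was thus shared, and the size differed by over 2 log2 units with either compound. By slide, the X-1 difference was 1.55, 2.24 and 2.50 at the brighter probe and 3.87, 4.44 and 4.51 at the second. At the brighter probe the X-3 call was lost with spike-in scaling (0.38, adjusted p = 0.265).

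Dusp6, the cytoplasmic ERK phosphatase, was called higher with X-1 and not with X-3. Its signals were 678, 909 and 861% with X-1 and 438, 368 and 320.5% with X-3, against 315, 321 and 333% in control (probe at chr10:98729985-98730044, mm9). Every X-1 array was above every other array, while the X-3 array of slide 3 fell inside the control range. Dusp6 rose by 1.33 ± 0.16 with X-1 (2.51-fold, adjusted p = 9.89e-05), with 1.11, 1.50 and 1.37 on the slides. With X-3 the difference was 0.21 ± 0.16 (adjusted p = 0.296), with a 95% confidence interval of −0.15 to 0.56 and slide values of 0.48, 0.20 and −0.06. Under spike-in scaling the X-1 difference was 0.52 and not called (adjusted p = 0.112), and the X-3 difference turned to −0.63 (adjusted p = 0.0581).

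The 3 phosphatases directed mainly at JNK and p38 all rose with both compounds. Dusp8 had signals of 48.3, 64.8 and 53.8% with X-1 and 41.8, 49.6 and 43.4% with X-3, against 8.90, 12.5 and 13.7% in control, at a probe that the files list under a synonym of the gene (A_51_P114314, chr7:149265636-149265695, mm9). All 6 treated arrays were above the controls, and the treated groups overlapped. The difference was 2.26 ± 0.19 with X-1 (4.80-fold, adjusted p = 1.06e-05) and 1.96 ± 0.19 with X-3 (3.89-fold, adjusted p = 3.07e-05). The other Dusp8 probe, A_51_P263246 at chr7:149267534-149267593, was dimmer, with 27.8, 21.0 and 17.9% with X-1 and 21.2, 13.4 and 13.9% with X-3, against 3.48, 1.79 and 8.12% in control. It gave differences of 2.56 ± 0.48 and 2.09 ± 0.48 (adjusted p = 0.00175 and 0.00558), close to the first probe and with a wider error.

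Dusp10 showed 206, 219 and 221% with X-1 and 207, 126 and 144% with X-3, against 55.7, 34.1 and 41.8% in control (probe at chr1:185898608-185898667, mm9). The X-1 arrays were tightly grouped, the X-3 array of slide 1 was as bright as they were, and the other X-3 arrays were dimmer. Dusp10 rose by 2.32 ± 0.22 with X-1 (5.01-fold, adjusted p = 2.52e-05) and by 1.86 ± 0.22 with X-3 (3.62-fold, adjusted p = 0.000119). On slides 1, 2 and 3 the values were 1.89, 2.68 and 2.40 with X-1 and 1.90, 1.89 and 1.78 with X-3.

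Dusp16, a phosphatase of JNK and p38 that shuttles between nucleus and cytoplasm, was read by 3 probes within one stretch of chromosome 6. The brightest, A_51_P242634, lies at chr6:134665656-134665696 (the files place 41 of its 60 bases), A_52_P492081 at chr6:134668003-134668062 and A_52_P374825 at chr6:134687549-134687608 (mm9). Their first 30 bases are given because here too the size depended on the probe.
A_51_P242634: gtacaaaatggtgattttgagcaaaactag
A_52_P492081: ggcatgaagagagcccctttgaaaagcagt
A_52_P374825: ggctcttagccagaataatgacttaagttt
The brightest probe had signals of 512, 509.7 and 533% with X-1 and 368, 494 and 478% with X-3, against 129, 108 and 104.6% in control. Treated and control arrays were far apart, and the X-3 arrays were all below the X-1 arrays, by a small margin on slides 2 and 3. The differences were 2.19 ± 0.15 with X-1 (4.57-fold, adjusted p = 3.13e-06) and 1.97 ± 0.15 with X-3 (3.91-fold, adjusted p = 7.7e-06). A_52_P492081 had 26.6, 23.5 and 22.4% with X-1 and 26.6, 22.3 and 23.4% with X-3, against 2.14, 2.29 and 2.60% in control, a difference of 3.37 ± 0.14 and 3.36 ± 0.14. A_52_P374825 gave 1.42 ± 0.17 and 1.19 ± 0.17. All 3 probes were called higher with each compound, as were both probes of Dusp4 and of Dusp8. Probe by probe, 54.8% of all kept probes were called with X-1, 54.1% with X-3 and 9.07% in X-3 against X-1.

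**Figure D2:**
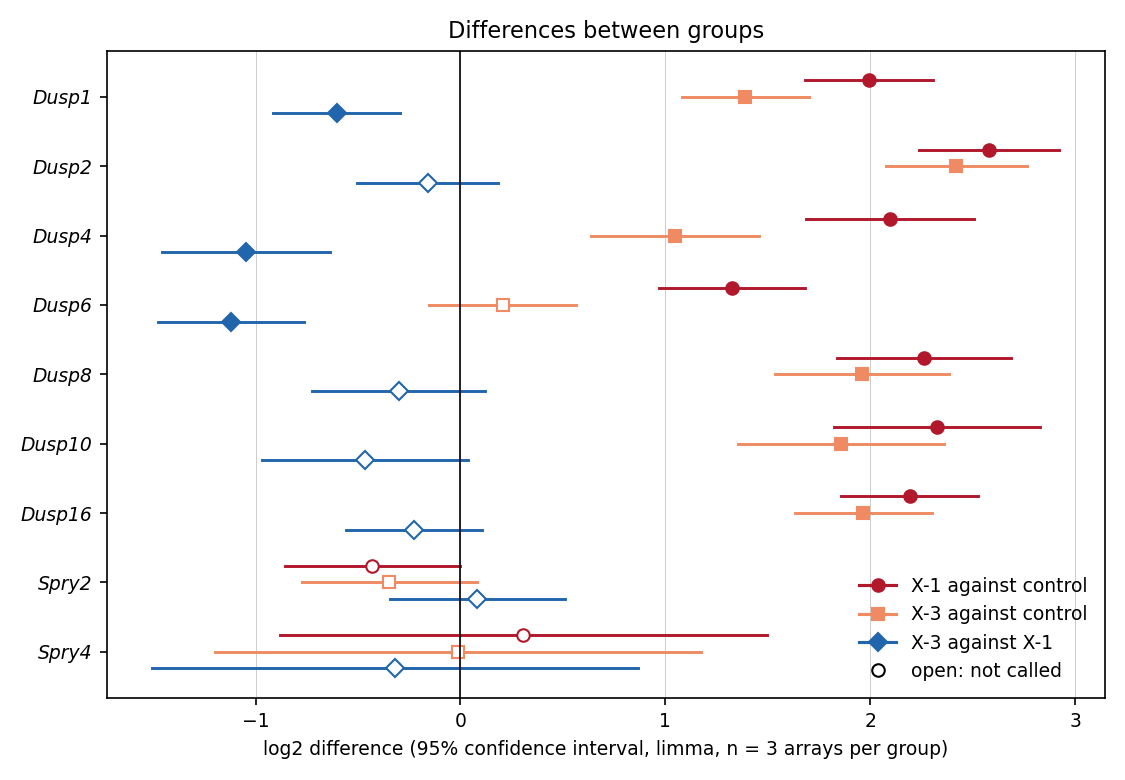
Log2 differences with 95% confidence intervals for each gene in X-1 against control, X-3 against control and X-3 against X-1, from the brightest probe (limma, 3 arrays per group). Filled symbols are called. The 7 phosphatases lie at 1.33 to 2.58 with X-1, and Dusp6 at 0.21 with X-3. In X-3 against X-1, only the intervals of Dusp6, Dusp4 and Dusp1 lie wholly below 0.

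Neither Sprouty gene was called with either compound. Spry2, which restrains RAS-ERK signalling below receptor tyrosine kinases, was read by A_52_P368532 at chr14:106291385-106291444 and A_51_P445153 at chr14:106291901-106291960 (mm9). Their first bases are shown because the 2 probes, with starts close together, pointed in opposite directions.
A_52_P368532: caggaaacctttattgtaagtctctgattt
A_51_P445153: ccccccttttaacacatatgcaaccaacta
The brighter probe, A_52_P368532, had signals of 257, 225 and 191% with X-1 and 273, 217 and 219.97% with X-3, against 382, 260 and 271% in control. Every X-1 array was below every control array, as for 33.8% of all genes, and X-3 overlapped the controls. The differences were −0.43 ± 0.19 with X-1 (adjusted p = 0.0804, interval −0.86 to −0.0023) and −0.35 ± 0.19 with X-3 (adjusted p = 0.147), so neither was called. A_51_P445153 had 39.0, 68.4 and 74.1% with X-1 and 47.1, 60.9 and 69.9% with X-3, against 31.9, 37.5 and 51.9% in control, with differences of 0.56 ± 0.29 and 0.56 ± 0.29 (adjusted p = 0.130 and 0.126). Within each of the 3 slides the first probe was below and the second above its control with both compounds.

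With the slide as a block both Spry2 probes were called, in opposite directions. The brighter probe was lower with X-1 (adjusted p = 0.0195) and X-3 (adjusted p = 0.0438) at the same differences, adjusted over all genes. Adjusted over all kept probes, its values were 0.0223 and 0.0479, and A_51_P445153 was higher (adjusted p = 0.0154 and 0.0151). The mean of the 2 probes differed by 0.06 with X-1 and 0.11 with X-3. No single direction for Spry2 can therefore be given from these arrays. With the block, 8 genes were called with X-1 and 7 with X-3, the added gene being Spry2. Over all genes the block called 9954 with X-1, against 9417 without it.

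**Figure D3:**
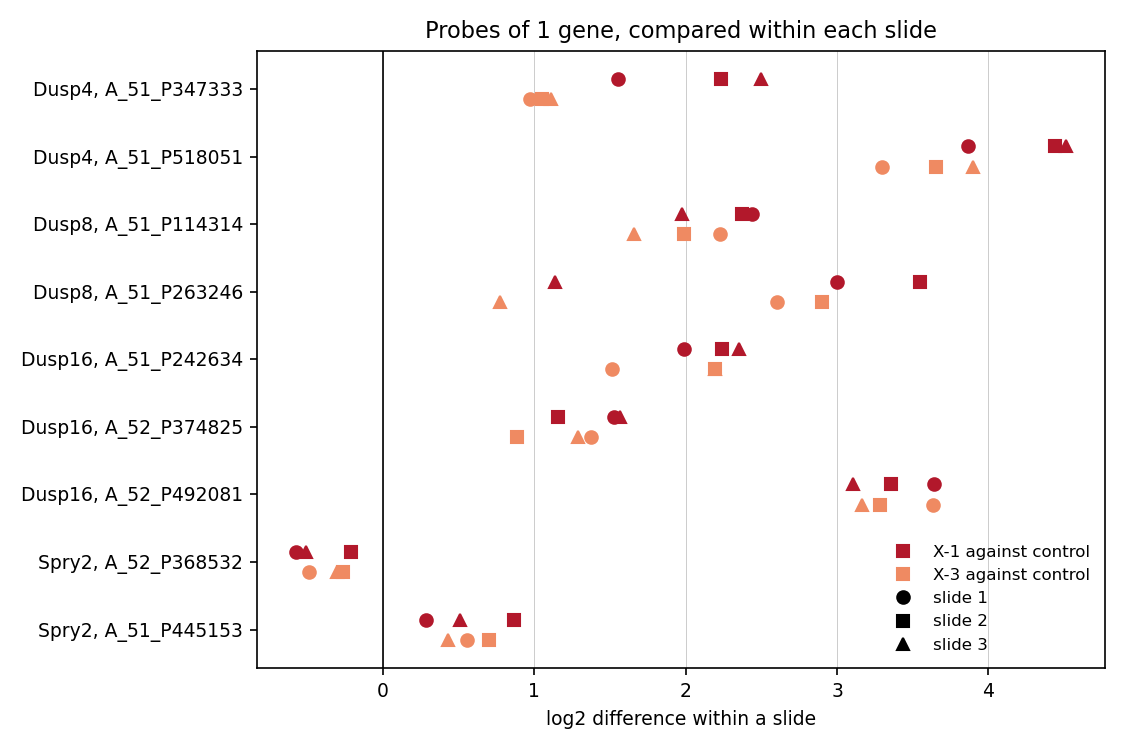
Log2 differences from control within each slide, for every kept probe of the genes with more than 1 kept probe. Colours mark the compound and symbols the slide. Probes of Dusp4, Dusp8 and Dusp16 lie above 0 on all 3 slides, whereas the 2 Spry2 probes lie on opposite sides of 0 on all 3.

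Spry4, a Sprouty protein that also restrains RAS-ERK signalling, had signals of 27.4, 15.3 and 18.4% with X-1 and 36.1, 10.2 and 10.8% with X-3, against 28.5, 12.1 and 11.8% in control. The array of slide 1 was the brightest in every group, and the groups overlapped. Neither difference was called, at 0.31 ± 0.52 with X-1 (adjusted p = 0.639) and −0.01 ± 0.52 with X-3 (adjusted p = 0.988). Within slides 1, 2 and 3 the X-1 difference was −0.06, 0.33 and 0.64, and the X-3 difference 0.34, −0.25 and −0.13. On slides 2 and 3 alone Spry4 was called higher with X-1 (0.49, adjusted p = 0.00991). That fit called 11553 of 16736 genes with X-1, 5972 of them higher. In X-3 Spry4 fell under spike-in scaling (−0.89, adjusted p = 0.00657), where 8373 of all genes were called lower.

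Set directly against each other at the same dose and time, X-3 gave lower signals than X-1 for 3 of the 9 genes, and 0 higher, against 3.57% of all genes called lower, 6.97% called higher and 10.5% called in either direction. Dusp6 had the largest of these differences, −1.12 ± 0.16 (adjusted p = 0.00613), and the slides gave −0.63, −1.31 and −1.43. Dusp4 differed by −1.05 ± 0.18 (adjusted p = 0.0106), with −0.58, −1.18 and −1.38 on the slides, and its second probe by −0.66 ± 0.15 (adjusted p = 0.0305, or 0.0548 with the slide as a block). Dusp1 differed by −0.60 ± 0.14 (adjusted p = 0.0277), with −0.36, −0.97 and −0.48 on the slides. On all 3 slides the 3 genes were lower with X-3, and by less on slide 1, which held the X-3 array that stood apart. Every X-3 array was below every X-1 array for Dusp1, Dusp4, Dusp6 and Dusp16, which is 4 of the 9 genes and compares with 11.8% of all genes. For Dusp16 this held at the brightest probe only, and at A_52_P492081 and A_52_P374825 the X-1 and X-3 arrays overlapped.

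The call of Dusp1 was the least firm of the 3. It was lost with median scaling (adjusted p = 0.155), with spike-in scaling, without the filter on dim probes, in a fit of the 2 compounds alone, and on leaving out control replicate 3, X-1 replicate 2 or 3, or X-3 replicate 2 or 3 (adjusted p = 0.0550 to 0.0977). Dusp4 and Dusp6 were called in every alternative run. Leaving out X-3 replicate 1 added Dusp10 (−0.67, adjusted p = 0.0434), for which all 9 arrays gave −0.47 ± 0.22 (adjusted p = 0.213, interval −0.97 to 0.04). Without that array 3408 of all genes were called, against 1765 with all 9 arrays.

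For the other genes no difference between the compounds was called on all 9 arrays. The intervals were −0.73 to 0.12 for Dusp8 (difference −0.30), −0.56 to 0.11 for Dusp16 (−0.23), −0.50 to 0.18 for Dusp2 (−0.16), −0.35 to 0.51 for Spry2 (0.08) and −1.51 to 0.87 for Spry4 (−0.32). For Dusp2 and Dusp16 these bounds are narrow beside their differences from control, and for Spry4 they are wide. The Spry4 difference ranged over −0.91 to −0.0035 on leaving out an array, and on slides 2 and 3 alone it was called lower (−0.68, adjusted p = 0.00897). On those slides 6421 of all genes were called, against 1765 on all 9 arrays. At A_52_P492081, the Dusp16 probe with the largest difference from control, X-3 and X-1 differed by 0.00 ± 0.14 (interval −0.31 to 0.30).

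Other genes of the pathway were read in 6 lists, by counts and medians. The counts in each list are to be read against the shares over all genes. These were 56.3% called with X-1 (28.0% higher, 28.2% lower), 55.3% with X-3 (28.9% higher, 26.4% lower) and 10.5% between the compounds. From each list the genes with the largest called X-1 differences are named, with those called between the compounds. Among the genes named between the compounds, Mapk8 and Mapk11 were called in every alternative run and each of the others lost the call in 1 or more. Of 17 genes of the ERK cascade itself, 7 rose and 4 fell with X-1 (median 0.35), and 8 rose and 3 fell with X-3 (median 0.39). The balance depended on scaling. With spike-in scaling 2 rose and 8 fell with X-1 and 3 rose and 8 fell with X-3, and with median scaling 4 rose and 4 fell with X-3. Ksr1, a scaffold that holds RAF, MEK and ERK together, rose by 2.40 ± 0.30 and the RAS gene Nras by 1.63 ± 0.15 with X-1. The kinase Araf fell by 0.91 ± 0.15 and the adaptor Shc1 by 0.79 ± 0.18. Between the compounds Araf (0.83) and Mapk3, which encodes ERK1 (0.75), were higher with X-3.

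In the p38, JNK and ERK5 cascades, 7 of 15 genes rose and 2 fell with X-1 (median 0.10), and 5 rose and 2 fell with X-3 (median 0.32). This balance turned with spike-in scaling, where 2 rose and 8 fell with X-1 (median −0.81) and 1 rose and 6 fell with X-3 (median −0.60), and with median scaling 4 rose and 3 fell with X-1. Map3k5, the stress kinase ASK1, rose by 2.31 ± 0.15 with X-1 and Mapk8, which encodes JNK1, by 1.85 ± 0.19. The p38 activator Map2k6 fell by 1.83 ± 0.16 and the p38 isoform Mapk11 by 1.82 ± 0.10. Mapk8 differed most between the compounds in this list, at −1.47 ± 0.19 for X-3 against X-1 (adjusted p = 0.00439), with Mapk11 at 0.83 and Map3k5 at −0.73.

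The other dual-specificity and MAPK phosphatases gave mixed calls. Of 14 measured, 1 rose and 3 fell with X-1 (median −0.05), and 4 rose and 3 fell with X-3 (median 0.16). With X-3 the balance turned to 1 higher and 3 lower under median scaling and under quantile normalization, and to 1 and 5 under spike-in scaling. Dusp11, which acts on RNA, rose by 1.80 ± 0.16 with X-1, while Dusp14 fell by 1.28 ± 0.30 and the catalytically inactive Styx by 1.18 ± 0.16. Dusp9 (0.51) and Dusp19 (0.44) were higher with X-3 than with X-1, and both calls were lost with the slide as a block.

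Among 17 other inhibitors of RAS-ERK signalling 2 rose and 7 fell with X-1 (median −0.10), and 1 rose and 8 fell with X-3 (median −0.36). Errfi1, a feedback inhibitor of the EGF receptor, rose by 2.09 ± 0.13 with X-1 and by 1.47 ± 0.13 with X-3, a difference between compounds of −0.62 (adjusted p = 0.0226). Spred2, an inhibitor of RAF activation, rose by 0.58 ± 0.16 with X-1, not called with median scaling and turned to −0.34 with spike-in scaling. Lztr1, which marks RAS proteins for degradation, fell by 1.84 ± 0.15 and Il17rd, an antagonist of FGF signalling, by 1.54 ± 0.16. Spry1, named here after its values were seen as the remaining bright Sprouty gene, fell by 1.38 ± 0.13 with X-1 and by 1.32 ± 0.13 with X-3, and Spry3 was lower with X-3 than with X-1 (−0.94, adjusted p = 0.0162).

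The genes listed as ERK-dependent transcripts were mostly higher, and their dependence on ERK was not tested here. Of 19, 12 rose and 5 fell with each compound, with a median of 1.74 for X-1 and 1.61 for X-3. Ier3, an early-response gene, rose by 4.73 ± 0.42 with X-1 and by 4.19 ± 0.42 with X-3, and Fos by 3.83 ± 0.22 and 3.31 ± 0.22. Ccnd1, which encodes cyclin D1, fell by 2.07 ± 0.16 and 1.91 ± 0.16. The ETS factor Etv5 fell by 1.18 ± 0.16 with X-1, but a filter that kept only probes above background on all 9 arrays moved it to another probe, at −0.15 and not called. Etv1 (−1.01), Maff (−0.90) and Etv5 (−0.76) were lower with X-3 than with X-1. For Etv5 that filter turned this difference to 0.33, not called, and the probe first used was above background on 2 of 3 X-3 arrays.

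Of 13 growth factor receptors, 2 rose and 8 fell with X-1 (median −0.67), and 1 rose and 9 fell with X-3 (median −0.84). Fgfr1 rose by 1.51 ± 0.19 with X-1, a call lost with spike-in scaling (0.40). The insulin receptor Insr rose by 0.48 ± 0.15, not called with median scaling and at −0.48 with spike-in scaling. Fgfr2 fell by 1.60 ± 0.16 and Pdgfrb, a receptor of fibroblasts for PDGF, by 1.43 ± 0.17. Igf1r was lower with X-3 than with X-1 (−0.84, adjusted p = 0.0167).

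**Figure D4:**
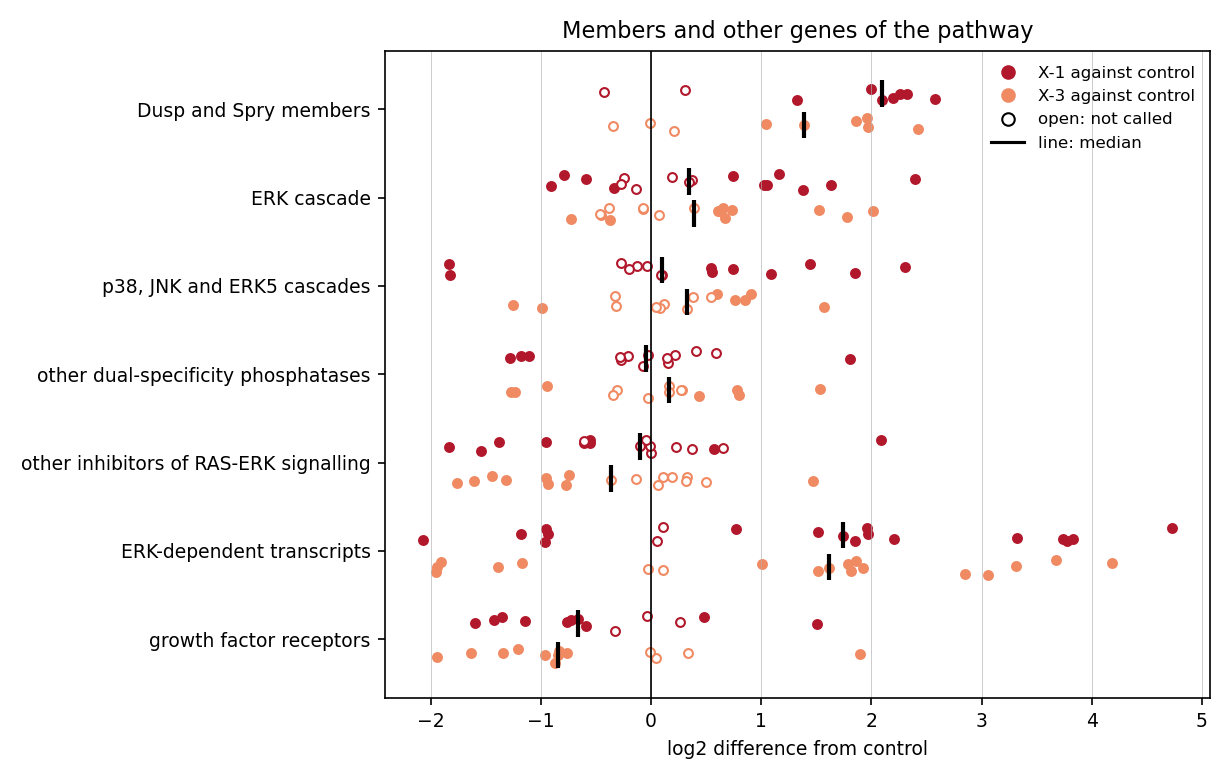
Log2 differences from control for the 9 measured genes and for each list of other pathway genes, in X-1 and X-3. Points are genes, filled where called, and black lines are medians. The 9 genes have medians of 2.10 and 1.39, the ERK-dependent transcripts 1.74 and 1.61, and the growth factor receptors −0.67 and −0.84.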

How the data were processed

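Total RNA of 9 cultures was labelled with Cy3 and hybridised to 1 array each, per the labels' protocols. Spot intensity was read by the authors with Agilent Feature Extraction (10.5.1.1 for replicate 1, 10.7.3.1 for replicates 2 and 3, per the file headers, and 9.1 per the submitters' processing notes), which subtracted background and detrended the signal. Probe coordinates are on mm9, per the file headers. The series' table of values, which the authors deposited as a score per probe of unstated scale, was used as an alternative only. Of 41174 gene probes, 214 marked as outliers on an array were left out, which left 40960, and the 25288 that passed the software's background test on each array of some group were kept. Names came from accessions (24982), symbols (6296) or synonyms (1624) in the reference table, and 8058 probes kept the files' names. Log2 intensity was reduced by each array's 75th percentile, and each of 16736 genes was represented by its brightest kept probe. All 9 arrays were fitted two-sided with lmFit and eBayes (limma 3.58.1, R 4.3.3), with group as the only term and a threshold of 0.05 for the Benjamini-Hochberg adjusted p. The script was tested on simulated data. Motifs were searched in RefSeq windows of 250 bases.

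All chosen genes but Dusp5, which had no probe, are reported with every kept probe. From each list of pathway genes the 2 largest called increases and decreases with X-1 were named, and up to 3 genes called between the compounds, of which 1 is not reported here. The genes, the lists and the tests were chosen with earlier results of these data known. The design text speaks of 9 independent experiments, but the labels tie no array to a culture, so p-values measure the spread between these arrays, which may be partly technical, and their number limits the precision. Same-numbered arrays shared a slide. Across genes their deviations from the group means correlated at 0.517, 0.318 and 0.271 for X-1 and control. For X-3 and control the correlations were 0.238, 0.112 and 0.230, and between the compounds they were −0.041, −0.182 and 0.156. Arrays with different numbers were not correlated, so pairing by number was not tested. Alternatives covered scaling, background correction, filters, choice of probe, the slide as a block and leaving out each array.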

Additional observations from a re-analysis of the deposited data

How the results depend on the processing

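Dusp2, Dusp8, Dusp10 and Dusp16 were called higher with both compounds, and Dusp1 and Dusp4 with X-1, under every alternative run. Leaving out each array in turn kept 7 genes called with X-1 and 6 with X-3, and gave 2 to 4 in X-3 against X-1. Over all genes these fits called 8237 to 10922 with X-1, 7970 to 10492 with X-3 and 583 to 3408 in X-3 against X-1. On slides 2 and 3 alone 5 genes were called in X-3 against X-1, in a fit that called 6421 of 16736 genes. All arrays gave 3, in a fit that called 1765.

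Scaling to 7 spike-in probes (slides 2 and 3) put the median of all genes at −0.85 with X-1 and −0.65 with X-3, against 0.06 and 0.05 with the 75th percentile, and the whole array split into 1516 higher and 10075 lower with X-1 and 1841 and 8373 with X-3. The main split was 4690 and 4727 with X-1 and 4838 and 4417 with X-3. Median scaling gave 3127 and 5115 with X-1 and 3081 and 4875 with X-3. In X-3 against X-1 the split was 1672 and 257 with spike-in scaling, 318 and 144 with median scaling and 1400 and 648 with quantile normalization, against 1167 and 598 with the 75th percentile. Under spike-in scaling 7 genes were called with X-1 (6 higher, 1 lower) and 6 with X-3 (4 higher, 2 lower). It turned Spry4 with X-1 to −0.43, Dusp6 with X-3 to −0.63 and Dusp16 in X-3 against X-1 to 0.11. The cause was not tested.

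The mean of both probes turned Spry2 to 0.064 with X-1 and 0.11 with X-3. Spry2 was called lower with X-1 by median scaling (−0.63), spike-in scaling (−1.27), normexp (−0.46), on slides 2 and 3 alone (−0.36) and with the replicate block (−0.43), and with X-3 by spike-in scaling (−0.98) and the replicate block (−0.35). Spry4 with X-3 was 0.069 with normexp, and ranged over −0.60 to 0.41 on leaving out an array: 0.41 without control replicate 1, 0.30 without X-3 replicate 2 and 0.27 without X-3 replicate 3. Spry2 in X-3 against X-1 ranged over −0.030 to 0.19, with −0.030 without X-1 replicate 3 and −0.026 without X-3 replicate 1. The replicate block called 8 genes with X-1, 7 with X-3 and 3 in X-3 against X-1, and changed no gene's call but that of Spry2. Adjusted probe by probe, it also ended the X-3 against X-1 calls of the second Dusp4 probe and of the Dusp1 probe (adjusted p = 0.0528).

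In X-3 against X-1, 1765 of all genes were called. The count was 462 with median scaling, 1078 with normexp, 545 without the filter, 709 in a fit of the 2 compounds alone, 6421 on slides 2 and 3 alone, and 583 to 3408 on leaving out an array. Without X-3 replicate 1 it was 3408. The planned normexp on mean signals was not run, since only the replicate 1 files hold that column. Normexp on median signals was chosen after seeing the data.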
